A study of Mus musculus with 31 samples.

Results

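Heat shock chaperone and chaperonin genes were examined in whole mouse retina on Illumina BeadChip arrays. They were chosen by symbol: the Hsp70, Hsp110 and Hsp90 genes, the mitochondrial chaperonin genes Hspd1 and Hspe1, the Dnaj genes, and Tcp1 with Cct2 to Cct8 (Cct6a for Cct6), which encode the cytosolic chaperonin TRiC. The endoplasmic reticulum (ER) genes Hspa5, Hsp90b1 and Dnajb9 were left out. Of 88 probes for 61 such genes, 72 probes for 52 genes were detected on at least 6 of 31 arrays (deposited detection p under 0.05), and 60 of the 72 were detected on every array. The other 16 probes were detected on 0 arrays. The genes without a kept probe were Dnajb7, Dnajb8, Dnajc1, Dnajc11, Dnajc5b, Dnajc9, Hspa13, Hspa14 and Hspa1l. Over the whole series 16743 of 25697 probes were kept.

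All mice were C57BL/6J. The Ins2Akita group (genotype Ins2Akita/Ins2, 9 arrays) carries, on 1 copy of the insulin gene Ins2, a dominant mutation that harms beta cells, and the STZ group (6 arrays) received streptozotocin, a toxin of pancreatic beta cells. Control (8 arrays) was untreated, WT (8 arrays) had the genotype Ins2/Ins2, and the design text gives 3 months of hyperglycaemia for the diabetic groups. The labels give no age, sex or streptozotocin dose. The study set Ins2Akita against WT and STZ against Control to compare the models. Control against WT sets the non-diabetic groups of the models against each other. That comparison shares its WT arrays with the Ins2Akita comparison and its Control arrays with the STZ comparison.

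Each BeadChip held a single group, apart from Ins2Akita replicate 9, which shared the chip of the STZ group, so group and BeadChip cannot be told apart. Arrays detected 14581 to 16460 probes and correlated at 0.954 to 0.994. Of 9 rod markers measured, 9 were detected on all arrays. Of 15 lens markers, 15 were kept, and their mean log2 score, centred over arrays, ranged widely in each group: -3.44 to 3.46 in Ins2Akita, -0.42 to 4.48 in STZ, -3.38 to 4.72 in Control and -3.37 to 3.11 in WT. The pigment epithelium score ranged over -0.85 to 1.82 in Ins2Akita, -0.50 to 1.35 in STZ, -1.65 to 1.37 in Control and -1.50 to 1.73 in WT. Calb1, Nefl, Cdh5 and Nr4a1 were the markers detected on 0 arrays. The labels do not say that each sample was a different mouse, and the p-values cover only the spread among samples, which may be technical.

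Chaperones bind unfolded proteins and let them fold or be handed on for degradation. Hsp70 proteins work in cycles of ATP use that J-domain proteins (the Dnaj genes) start and Hsp110 proteins help to end, and Hsp90 acts later on partly folded clients. TRiC is a ring of 8 different subunits that folds actin and tubulin. Photoreceptors renew their outer segments continually and so make much new protein. Many of these genes are driven by heat shock factors, which bind heat shock elements, inverted repeats of GAA.

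Of the 52 genes, 43 had at least 1 promoter window in RefSeq (GRCm38.p6). The other 9, which include Hsp90aa1, Hspa8, Hspa9 and Cct4, had none and were not searched. A heat shock element of 3 units (GAANNTTCNNGAA or its reverse complement TTCNNGAANNTTC, so both strands were searched) lay in the 250 bases before a start site in 3 of the 43 genes, Dnajb6, Hspd1 and Hspe1. It lay in 0.514% of all genes with a window. The Hspd1 and Hspe1 matches are the same stretch read on opposite strands, so 1 region is counted for both genes. The 2-unit form (GAANNTTC or TTCNNGAA, contained in the 3-unit form) lay in 12 of the 43 genes, or 27.9%, and in 14.5% of all genes. The shown sequences are those of Dnajb6, of the region shared by Hspd1 and Hspe1, and of Hsph1, a gene called in the Ins2Akita comparison. Hspd1 and Hspe1 are transcribed away from each other, and the region between their start sites (chr1:55087933-55088147, plus strand, 215 bases) holds overlapping elements. The Dnajb6 window is chr5:29735648-29735897 on the plus strand. The Hsph1 window is chr5:149636337-149636586 on the minus strand, with the 2-unit form only. Capitals mark the matches, and a match is not evidence of binding.
Dnajb6: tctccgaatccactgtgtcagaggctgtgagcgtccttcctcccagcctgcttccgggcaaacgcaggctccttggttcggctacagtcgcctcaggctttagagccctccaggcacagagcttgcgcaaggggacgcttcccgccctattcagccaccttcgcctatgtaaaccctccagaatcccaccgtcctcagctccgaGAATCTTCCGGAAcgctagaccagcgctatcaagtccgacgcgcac
Hspd1 and Hspe1: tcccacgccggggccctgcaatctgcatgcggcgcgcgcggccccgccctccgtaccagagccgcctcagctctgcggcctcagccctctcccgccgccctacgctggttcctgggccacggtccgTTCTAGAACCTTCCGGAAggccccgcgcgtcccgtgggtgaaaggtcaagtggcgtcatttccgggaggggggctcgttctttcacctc
Hsph1: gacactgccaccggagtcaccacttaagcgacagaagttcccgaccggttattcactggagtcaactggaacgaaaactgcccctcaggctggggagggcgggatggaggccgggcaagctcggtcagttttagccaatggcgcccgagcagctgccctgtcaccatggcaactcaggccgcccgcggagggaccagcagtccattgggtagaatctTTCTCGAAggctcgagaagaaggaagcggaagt

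In Ins2Akita retinas 3 of the 72 chaperone probes were called at an adjusted p under 0.05 (limma, Benjamini-Hochberg over all 16743 probes), and all 3 were lower than in WT. This is 4.17% of the probes, and 4.16% of all probes were called (2.4% lower, 1.76% higher). At an unadjusted p under 0.05 the share was 20.8%, with 19.2% of all probes. The median log2 change of the chaperone probes was -0.05, against -0.00 for all probes, and 24 of 72 lay above 0, with 49.8% of all probes above 0. None of the 72 had groups without overlap, where 0.46% of all probes did. On 66 of the 72 probes the 95% interval of the change lay within 0.5 on the log2 scale, or 1.41-fold, on either side of 0. In whole tissue, fewer cells of a type and less RNA per cell cannot be told apart. The called genes were Hsph1, Cct3 and Dnajb13.

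Hsph1 (ILMN_2716098), an Hsp110 protein that exchanges the nucleotide of Hsp70, had a lowest, median and highest log2 intensity of 9.33, 9.46 and 9.74 in Ins2Akita, against 9.66, 9.72 and 9.92 in WT. Of the 9 Ins2Akita arrays, 7 lay below every WT array. Its log2 change was -0.23 (SE 0.0687, 0.852-fold, limma adjusted p = 0.0493). The call was lost when any of 12 of the 17 arrays was left out (WT replicates 1, 2, 3, 4, 6 or 8, or Ins2Akita replicates 2, 3, 4, 6, 7 or 8), with adjusted p-values of 0.0251 to 0.0965 over all 17. In non-diabetic Control, against the same WT arrays, the Hsph1 log2 change was -0.12 (limma adjusted p = 0.232). There 6 of 8 Control arrays lay below every WT array.

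Cct3 (ILMN_2931411), a TRiC subunit, had 10.40, 10.52 and 10.85 in Ins2Akita, against 10.71, 10.79 and 11.01 in WT. Again the ranges overlapped, with 8 of 9 Ins2Akita arrays below every WT array. The log2 change was -0.23 (SE 0.0585, 0.850-fold, limma adjusted p = 0.0187). The dimmer Cct3 probe (ILMN_1247317) had a log2 change of -0.04 with an interval of -0.26 to 0.18 (adjusted p = 0.877), which holds the value of the brighter probe. The brighter probe was also lower in Control against WT (-0.22, limma adjusted p = 0.00885), with 6 of 8 Control arrays below every WT array.

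Dnajb13 (ILMN_2667257), a J-domain protein known from sperm flagella and motile cilia, was close to background, detected on 4 of 9 Ins2Akita arrays and 7 of 8 WT arrays. Its log2 intensity was 4.75, 4.87 and 5.21 in Ins2Akita, against 4.87, 5.29 and 5.58 in WT. All 9 Ins2Akita arrays lay below the WT mean and 5 below every WT array. The log2 change was -0.36 (SE 0.0859, limma adjusted p = 0.0138), a size that the offset of the scale understates for so dim a probe. With BeadChip as a random block the limma adjusted p was 0.0503 for Dnajb13, 0.0575 for Cct3 and 0.13 for Hsph1. With only the Ins2Akita and WT arrays in the fit it was 0.0523, 0.0683 and 0.0702 for these genes, and with lens and pigment epithelium scores as covariates it was 0.0443, 0.0637 and 0.0576. Dnajb13 also had a negative change in Control against WT (-0.21, limma adjusted p = 0.0866), where all 8 Control arrays lay below the WT mean.

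**Figure D1:**
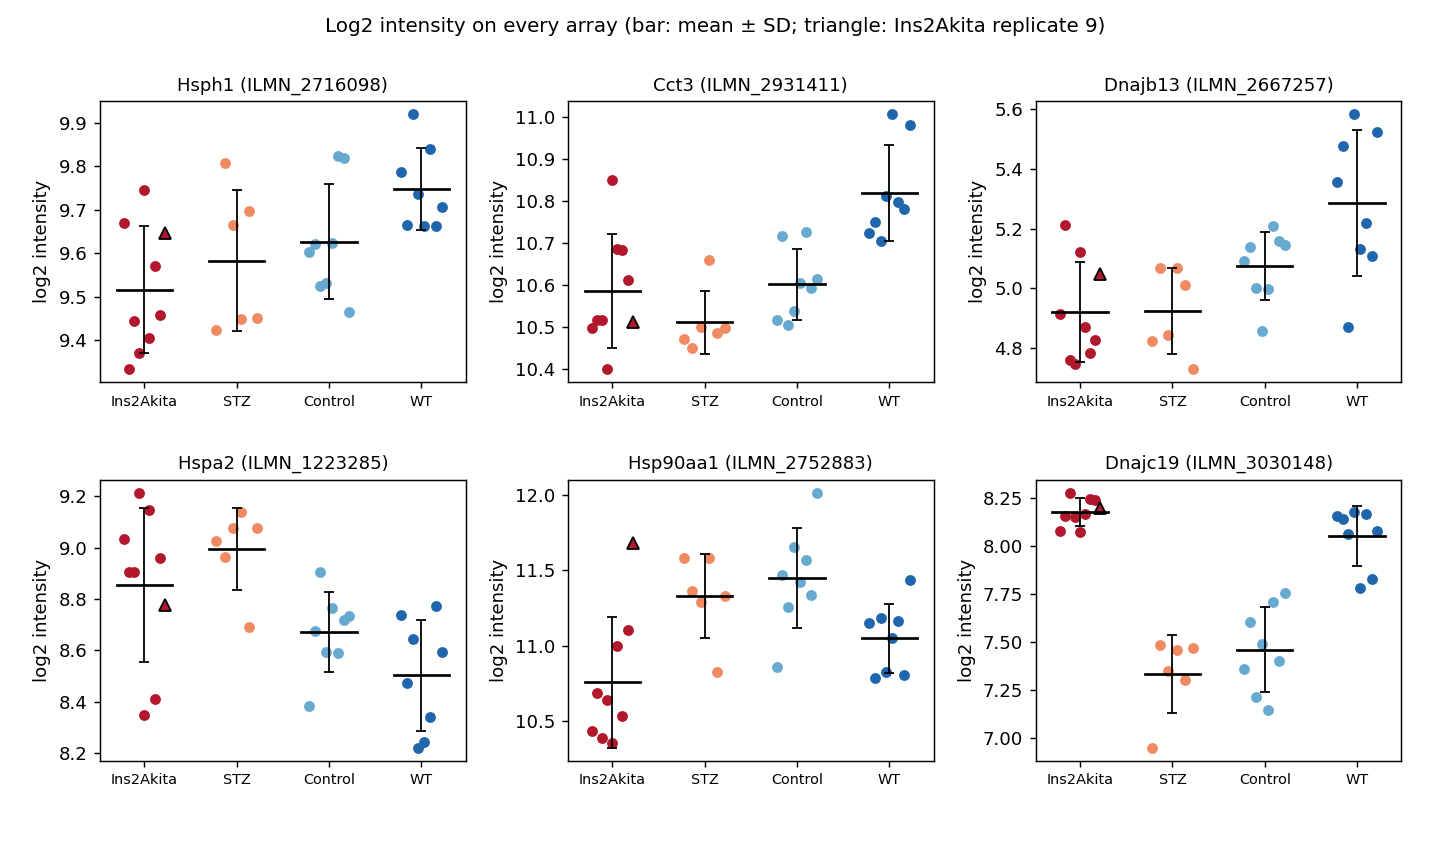
Log2 intensity of 6 probes (vertical axis, differing in span between panels) on every array by group, with mean and SD as black bars and Ins2Akita replicate 9 as a triangle. For Hsph1 and Cct3, 7 and 8 of the 9 Ins2Akita arrays lie below all WT arrays, for Hsp90aa1 the triangle stands above the other Ins2Akita arrays, and for Dnajc19 all Control arrays lie below all WT arrays.

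Among the Hsp70 genes the difference with the smallest p was that of Hspa2, an Hsp70 best known from testis. Its brighter probe (ILMN_1223285) had 8.35, 8.91 and 9.21 in Ins2Akita, against 8.22, 8.53 and 8.77 in WT. The log2 change of 0.35 (SE 0.106) missed the threshold at an adjusted p of 0.0527 (limma), and the dimmer probe had 0.12. Without WT replicate 1 or 7, or Ins2Akita replicate 5 or 7, the adjusted p of Hspa2 was 0.0149 to 0.0444. Hspa8, the constitutive cytosolic Hsp70, had a log2 change of -0.04 with an interval of -0.13 to 0.05 on its bright probe. After the quantile step of the normalization that probe took the same values on several arrays, such as 14.126 and 14.1393. Its narrow interval may thus be set in part by that step. Hspa9, the mitochondrial Hsp70, had 0.07. Hspa1a, the heat-inducible Hsp70, had 0.10 with an interval of -0.07 to 0.28. Its near-identical copy Hspa1b, and Hsp90ab1, were not analysed here, and the Hspa1a probe may not tell the copies apart.

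The other main chaperones were not called. Hsp90aa1 (ILMN_2752883), the inducible cytosolic Hsp90, had 10.36, 10.64 and 11.68 in Ins2Akita, against 10.79, 11.10 and 11.43 in WT. With 6 of 9 Ins2Akita arrays below every WT array and replicate 9 above them all, its log2 change was -0.29 (interval -0.61 to 0.02). The mitochondrial chaperonin genes Hspd1 and Hspe1 had log2 changes of 0.02 and -0.06. Dnajb1 and Dnaja1, the main J-domain partners of cytosolic Hsp70, had 0.16 and -0.19. Dnajc5, the cysteine string protein of synaptic vesicles, and Dnajc6, the auxilin that uncoats clathrin vesicles, had 0.04 each on their brightest probes. The dimmer Dnajc6 probe had -0.12 (interval -0.24 to -0.01, limma adjusted p = 0.231). The 7 other TRiC subunits had 0.04 to -0.24 on their brightest probes, and 0 of them passed.

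In STZ retinas 0 of the 72 chaperone probes were called against Control (limma), where 0.0358% of all probes, 6 in number, were called. At an unadjusted p under 0.05 there were 4 (5.56%), with 8.55% of all probes. The median log2 change was -0.04, against -0.01 for all probes, and 27 of 72 lay above 0 (45.6% of all probes). Intervals lay within 0.5 of 0 for 68 of 72, and 0 of the 72 had groups without overlap (0.209% of all probes). Both Hspa2 probes and Hspa9 came closest to the threshold.

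Hspa2 (ILMN_1223285) had 8.69, 9.05 and 9.14 in STZ, against 8.38, 8.70 and 8.91 in Control. Of 6 STZ arrays 5 lay above every Control array, on this probe and on the dimmer probe alike. The log2 changes were 0.32 (SE 0.118, limma adjusted p = 0.373) and 0.25 (SE 0.0928, adjusted p = 0.388). Hspa9 had 11.82, 11.95 and 12.02 in STZ, against 11.70, 11.81 and 11.95 in Control, a log2 change of 0.13 (adjusted p = 0.516). Of the stress-inducible genes, Hspa1a had 0.09 (interval -0.10 to 0.29), Hsph1 -0.04, Dnajb1 -0.09 and Hsp90aa1 -0.12 (interval -0.47 to 0.23).

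The change in Ins2Akita minus the change in STZ was called for 0 of 72 probes (limma; 0.0179% of all probes), and 6 (8.33%, with 8.65% of all probes) had an unadjusted p under 0.05. Closest to the threshold were the dimmer Dnajc16 probe (difference -0.31, adjusted p = 0.394), Dnajc24 (-0.25, adjusted p = 0.421) and the dimmer Hsp90aa1 probe. The last was detected on 0 of 8 WT arrays, so no size is given. For Hspa2 the changes were 0.35 in Ins2Akita and 0.32 in STZ on the brighter probe, a difference of 0.03 (interval -0.29 to 0.35). On the dimmer probe they were 0.12 and 0.25, a difference of -0.13 (interval -0.38 to 0.12). Control against WT had 0.17 on the brighter and 0.10 on the dimmer Hspa2 probe, neither of them called.

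**Figure D2:**
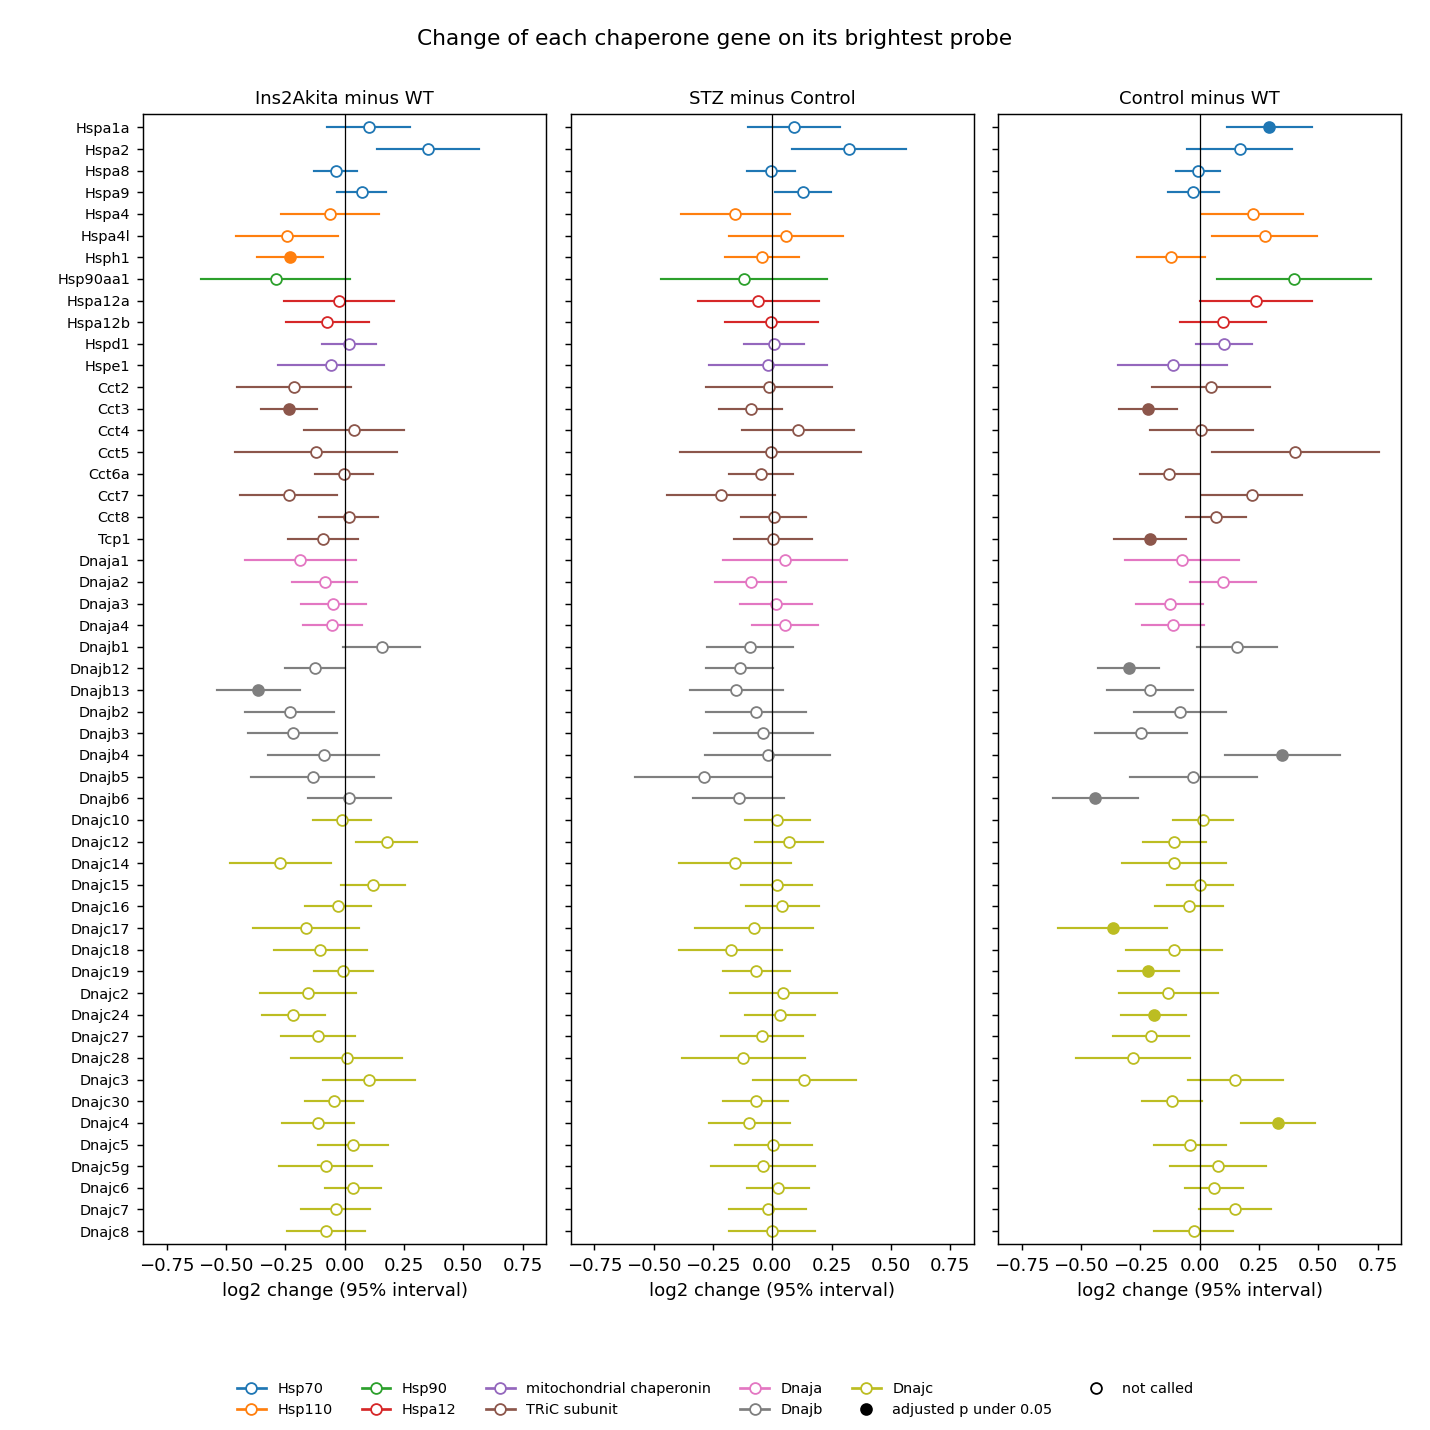
Log2 change (horizontal axis) of the brightest probe of each of the 52 genes with its 95% interval, coloured by class, for Ins2Akita minus WT, STZ minus Control and Control minus WT. Filled points had an adjusted p under 0.05 (limma over all probes): 3 genes in the left panel, 0 in the middle and 10 in the right.

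Control retinas differed from WT retinas on 12 of the 72 chaperone probes, of 11 genes, with 3 higher and 9 lower (limma adjusted p under 0.05). This is 16.7%, and 22.2% of all probes were called (11.4% higher, 10.9% lower). At an unadjusted p under 0.05 there were 24 (33.3%), with 34.4% of all probes, and 32 of 72 lay above 0, with 50.4% of all probes. These groups are both non-diabetic and lay on different BeadChips.

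Dnajc19, a J-domain protein of the mitochondrial protein import motor, had the smallest p. Its middle probe (ILMN_3030148) had 7.15, 7.45 and 7.76 in Control, against 7.78, 8.11 and 8.18 in WT, with no overlap. The log2 change was -0.59 (SE 0.0849, 0.664-fold, limma adjusted p = 8.62e-06). Its brightest probe had -0.22 (adjusted p = 0.0135) and its dimmest 0.06. On the middle probe STZ had 6.95 to 7.48 and Ins2Akita 8.07 to 8.28.

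Dnajb12, an ER membrane J-domain protein, was the other probe without overlap, with 7.30, 7.47 and 7.61 in Control, against 7.63, 7.76 and 7.87 in WT (log2 change -0.30, limma adjusted p = 0.000997). Probes without overlap made up 2.78% of the chaperone probes and 3.18% of all probes. Dnajb6, a J-domain protein that keeps polyglutamine proteins from aggregating, fell to 9.50 ± 0.20 in Control, against 9.94 ± 0.24 in WT (SD, n = 8 each) on its brighter probe. That log2 change was -0.44 (limma adjusted p = 0.000531), and the dimmer probe had -0.04.

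The other lower probes were Cct3 (-0.22, adjusted p = 0.00885), Tcp1 (-0.21, adjusted p = 0.0405), Dnajc17 (-0.37, adjusted p = 0.0187), Dnajc24 (-0.19, adjusted p = 0.0348) and a dim Dnajc10 probe (-0.31, adjusted p = 0.0176, all by limma). Tcp1 encodes a TRiC subunit, Dnajc24 takes part in making diphthamide, and Dnajc10 is an ER reductase. The dim Dnajc10 probe was detected on 1 of 8 Control arrays and 6 of 8 WT arrays, and the bright probe had 0.01. The Tcp1 call was lost without WT replicate 1, 2, 4 or 8 or Control replicate 1, 3, 5 or 7 (adjusted p up to 0.0996). That of Dnajc24 was lost without WT replicate 1, 3 or 6 or Control replicate 2, 5, 6 or 8 (up to 0.0809). With BeadChip as a random block the limma adjusted p was 0.0847 for Tcp1 and 0.0748 for Dnajc24. With only the Control and WT arrays in the fit it was 0.0775 for Tcp1, 0.0694 for Dnajc24 and 0.0603 for the dim Dnajc10 probe. The series matrix values gave 0.062 for that Dnajc10 probe, and the lens and pigment epithelium covariates 0.0505 for Tcp1.

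Hspa1a, Dnajb4 and Dnajc4 were higher in Control. Hspa1a (ILMN_2829594) had 9.35, 9.73 and 9.97 in Control, against 9.20, 9.39 and 9.64 in WT, and 5 of 8 Control arrays lay above every WT array. Its log2 change was 0.29 (SE 0.0883, limma adjusted p = 0.016). Those of Dnajb4 and Dnajc4 were 0.35 (adjusted p = 0.0342, the dimmer Dnajb4 probe 0.03) and 0.33 (adjusted p = 0.00246). All 3 calls of higher signal were lost when arrays were scaled to their medians without the quantile step, with log2 changes of 0.18, 0.23 and 0.22. The direction split was then 0 higher and 15 lower, with 22.5% of all probes called. That scaling moved all probes together: over all probes the median change became -0.07 on the log2 scale, against 0.00 with the quantile step, and over the chaperone probes -0.11, against -0.03. The Dnajb4 call was also lost without WT replicate 2, 4 or 5 or Control replicate 5, 6 or 8 (up to 0.0831), and with BeadChip as a random block (limma adjusted p = 0.0719). Hsp90aa1 (0.40, adjusted p = 0.0702), Cct5 (0.40, adjusted p = 0.0931) and Hspa4l (0.27, adjusted p = 0.0675) did not pass. Without Control replicate 1 their adjusted p-values were 0.0254 for Hsp90aa1, 0.0358 for Cct5 and 0.0198 for Hspa4l, and without WT replicate 8 that of Hsp90aa1 was 0.0447.

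Genes that work with these chaperones were counted on their brightest probes. Of 28 co-chaperones of Hsp70 and Hsp90, 0 were called in either diabetes comparison, where Trap1 (-0.25, adjusted p = 0.0515) and Sugt1 (-0.43, adjusted p = 0.0557) had the smallest p in Ins2Akita and Bag3 (0.33, adjusted p = 0.412) and Bag4 (0.20, adjusted p = 0.61) in STZ. In Control against WT 1 was higher, Ahsa2 (0.34), and 4 were lower, Cdc37l1 (-0.48), Fkbp4 (-0.23), Hspbp1 (-0.22) and Bag5 (-0.20). These 5 of 28 stand beside 22.2% called among all probes in that comparison, so the share of the list was not above it. Dimmer Cdc37l1 probes had 0.24 (limma adjusted p = 0.0247), 0.23 (adjusted p = 0.0411) and -0.07 there, so the direction for this gene differed between probes. The median of this list was -0.05 in Ins2Akita, -0.01 in STZ and -0.08 in Control against WT, with -0.00, -0.01 and 0.00 for all probes.

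The heat shock factor list had 5 genes measured: Hsf2, Hsf4, Hsbp1 and the cold-inducible RNA-binding protein genes Rbm3 and Cirbp. Hsf1 was not among them. Rbm3 was higher in Ins2Akita (0.37, limma adjusted p = 0.0384), while its 2 dimmer probes had 0.00 and -0.09. In Control against WT Hsf2 was higher (0.35), and Rbm3 (-0.40), Cirbp (-0.32) and Hsbp1 (-0.17) were lower. The 2 dimmer Rbm3 probes had 0.32 and 0.01 there and were not called. Of 7 small heat shock protein genes 0 were called in these comparisons. Those with the smallest p were Hspb6 (-0.20, adjusted p = 0.125) and Hspb8 (0.32, adjusted p = 0.395) in Ins2Akita, and the same genes in STZ (-0.16 and 0.36, adjusted p = 0.609 and 0.686). Of 12 actin and tubulin genes, whose products TRiC folds, Tubb4b was higher in Ins2Akita (0.22, adjusted p = 0.011), and Actg1 (0.84), Tubb3 (0.33) and Tubb4b (0.17) were higher and Tuba1b (-0.13) lower in Control against WT. Of 7 prefoldin genes and TRiC partners Pdcl was lower in Control against WT (-0.56). Of 11 ER genes Hyou1 (0.48) was higher and Pdia4 (-0.32) and Creld2 (-0.20) lower in that comparison, and 0 were called in Ins2Akita. In STZ 0 genes of these lists were called. Over all probes 4.16% were called in Ins2Akita against WT and 22.2% in Control against WT, and whether any of these lists differs from that was not tested. The ER genes left out of the set had log2 changes in Ins2Akita of -0.45 for Hspa5 (adjusted p = 0.057), -0.08 for Hsp90b1 and 0.14 for Dnajb9. The immediate early gene Egr1 differed widely too, at 9.20, 10.38 and 11.72 in Ins2Akita, against 10.56, 12.21 and 14.00 in WT (-1.78, adjusted p = 0.0202). Egr1 was also lower in non-diabetic Control than in WT (-1.68, limma adjusted p = 0.00921), so its difference was not particular to Ins2Akita. The part of Egr1 in the chaperone values was not tested.

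Ins2Akita replicate 9 differed from the other 8 Ins2Akita arrays on several chaperones. For Hsp90aa1 it had 11.68, above 10.36 to 11.10 on the other 8, and STZ had 10.82 to 11.58. For Cct5 it had 9.70, above 8.29 to 9.13, and for Hspa4l 9.56, above 8.66 to 9.01. It lay above the other 8 on 25 of 72 chaperone probes (34.7%) and on 15.8% of all probes. Outside their range in either direction it lay on 31 (43.1%) and on 32.8% of all probes. Without it, 5 chaperone probes were called against WT, Hspa4l among them (-0.33, limma adjusted p = 0.029), and Hsp90aa1 had -0.41 (adjusted p = 0.0769). The share of all probes called was then 4.66%, with 4.16% when it was kept. Replicate 9 also lay at position H of its BeadChip, as did replicate 8 of Ins2Akita, Control and WT. For Hsp90aa1 replicate 8 was the highest array of Control (12.01) and of WT (11.43), and of Ins2Akita apart from replicate 9 (11.10). For Cct5 replicate 8 was the highest in Control (9.90) and WT (9.31), while in Ins2Akita (9.07) another array lay above it (9.13). Effects of the BeadChip, of the position on it and of the mouse cannot be told apart in a single array.

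Array by array, several chaperones moved with Hsp90aa1. After each array's group mean was taken off, Cct5 correlated with the bright Hsp90aa1 probe at r = 0.964 over 31 arrays, the highest of 16742 other probes, and at 0.928 to 0.981 within the 4 groups. Hspa4l, an Hsp110 protein, followed at 0.909. An r above 0.5 was found for 15 of the 71 other chaperone probes (21.1%) and for 9.74% of all probes. An r below -0.5 was found for 5 (7.04%) and for 6.66% of all probes. These 5 included Dnajc7 (-0.716), a J-domain protein that binds Hsp70 and Hsp90, Dnajb2 (-0.644), a J-domain protein of neurons, and Dnajc5 (-0.637). Without Ins2Akita replicate 9, a setting chosen after seeing the data, the shares above 0.5 were 16.9% and 8.81%. Neurod1 (0.939) and Mapk10 (0.938), which are no chaperones, stood next to Cct5. The arrays share their RNA handling and normalization, position on the BeadChip was not taken off, and these values are descriptions.

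Of 12 measures tested against Hsp90aa1 (two-sided permutation of 100000 draws, Benjamini-Hochberg over the 12), Hspe1 had r = 0.698 (p = 1e-05, the smallest these draws can give, adjusted 0.00012) and rho = 0.716 (p = 2e-05, adjusted 0.00024). Hspa1a had r = 0.609 (permutation p = 0.00061, adjusted 0.00366) and rho = 0.519 (p = 0.00309, adjusted 0.0124). Hspd1 had r = 0.531 (permutation p = 0.00425, adjusted 0.0127) and rho = 0.445 (p = 0.0172, adjusted 0.0516). Without the 2 arrays farthest from the Hsp90aa1 median, r was 0.692, 0.582 and 0.531 for these genes. Without Ins2Akita replicate 9, which had the highest Hsp90aa1 value of its group, r was lower, at 0.653 for Hspe1, 0.513 for Hspa1a and 0.422 for Hspd1. Within the 4 groups r was 0.501 to 0.884 for Hspe1, 0.246 to 0.859 for Hspa1a and 0.322 to 0.769 for Hspd1. The rod marker score moved with Hsp90aa1 as well (r = 0.591, permutation p = 0.00153, adjusted 0.00612; rho = 0.547, p = 0.00245, adjusted 0.0124; r = 0.555 without those 2 arrays and 0.447 without Ins2Akita replicate 9), and its part in the other relations was not tested. Hsph1 (r = -0.131), Dnajb1 (-0.0993), Hspa8 (0.0449) and Dnaja1 (0.186) did not pass, nor did the lens, pigment epithelium and immediate early scores or the number of detected probes. The permutation took the arrays of a group as exchangeable, although position on the BeadChip was not taken off. An r above 0.5 with Hsp90aa1 was found for 9.74% of all probes, so a small p here does not set a gene apart from variation shared by many probes.

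**Figure D3:**
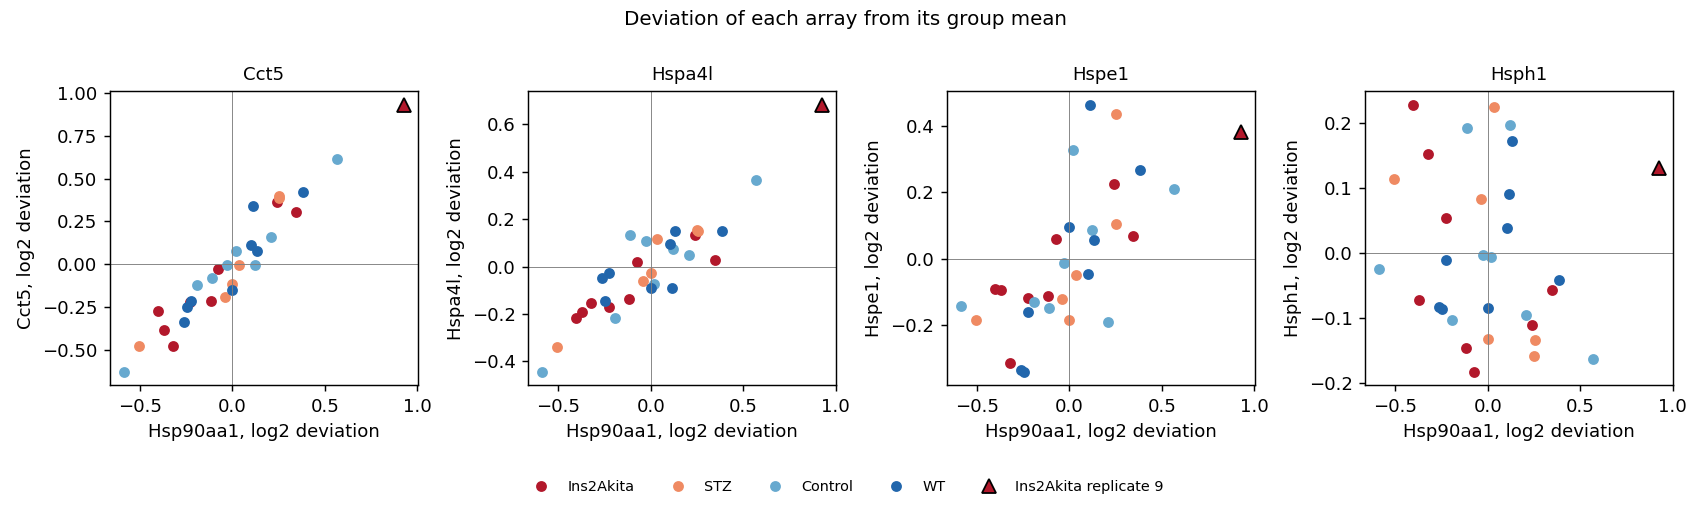
Deviation of each array from its group mean in log2 units for Hsp90aa1 (horizontal axis) and for Cct5, Hspa4l, Hspe1 and Hsph1 (vertical axis), coloured by group, with Ins2Akita replicate 9 as a triangle. Cct5 (r = 0.964) and Hspa4l (r = 0.909) lie along a line with Hsp90aa1, Hspe1 less closely (r = 0.698), and Hsph1 shows no such line (r = -0.131).

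Hspe1 and Hspd1, which share the promoter region shown above, were also set against each other. The bright Hspd1 probe followed Hspe1 (r = 0.516, permutation p = 0.00401, adjusted over 2 relations 0.00802; rho = 0.481, p = 0.00968, adjusted 0.0194). Without the 2 arrays farthest from the median r was 0.566, and without Ins2Akita replicate 9 it was 0.449. Within the groups it was 0.332 in Ins2Akita, 0.821 in STZ, 0.721 in Control and 0.32 in WT. The dimmer Hspd1 probe did not follow Hspe1 (r = -0.123, permutation p = 0.577, adjusted 0.577; rho = -0.222, p = 0.271, adjusted 0.271). The parts of the shared promoter region and of variation shared by many probes were not tested.

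Probes of the same gene often varied apart. Of 22 probe pairs 10 had an r above 0.5 after group means were taken off, and of the 13 pairs with both probes detected on all arrays 6 did. The bright Hspa8 probe spanned 0.335 log2 units over all arrays, a span that the quantile step may have narrowed. The dimmer one (ILMN_2918479) spanned 2.94, with a spread within groups above that of 98.9% of all probes. The dimmer Hspd1 probe (ILMN_2639036) spanned 2.06, and the brighter 0.406. Those dimmer Hspa8 and Hspd1 probes correlated with each other at 0.90, and the Hspa8 one with Sh3gl2 at 0.975, again as descriptions over 31 arrays. Changes of these dimmer probes have wide intervals, from -0.58 to 0.88 for Hspa8 in Ins2Akita.

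**Figure D4:**
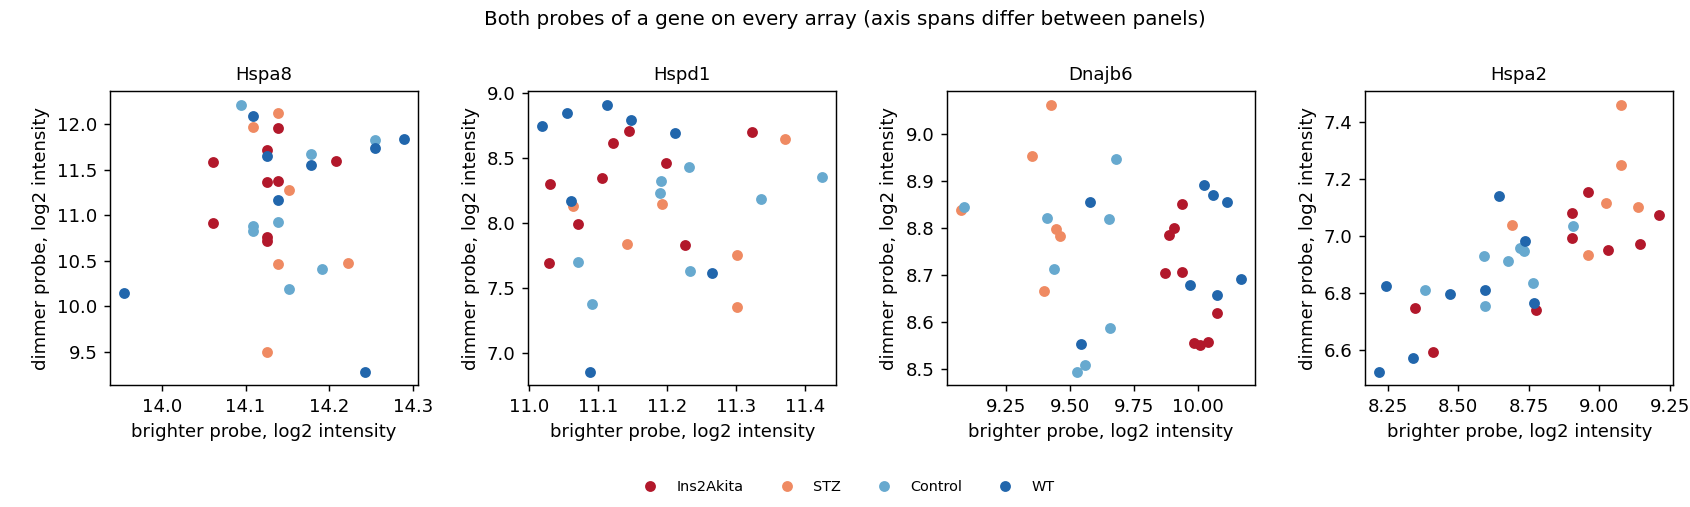
Log2 intensity of the brighter (horizontal axis) and dimmer probe (vertical axis) of Hspa8, Hspd1, Dnajb6 and Hspa2 on each array, coloured by group. The dimmer Hspa8 probe spans 2.94 units where the brighter spans 0.335, Dnajb6 arrays split along the brighter probe alone, and the Hspa2 probes follow each other (r = 0.664).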

How the data were processed

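RNA of whole retina was hybridised to 31 single-colour BeadChip arrays. The authors deposited probe intensity values on a linear scale, background-subtracted and scaled to a mean of 351.836 on every array as the values show, and a series matrix of the same intensities without the subtraction. They also deposited a detection p-value for each probe and array, and the submitters' processing notes name BeadStudio. Because scaling came before deposit, differences in total signal cannot be seen.

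From the subtracted table, neqc of limma 3.58.1 (R 4.3.3, with data.table, version 1.17.8) gave log2 values with an offset of 16, which understates changes of dim probes. Probes detected at a p under 0.05 on at least 6 arrays were kept. Each probe was fitted with 4 group means on all 31 arrays (lmFit, eBayes), two-sided, with Benjamini-Hochberg adjustment over all probes kept. Symbols came from the platform annotation, updated by Entrez identifier to RefSeq GRCm38.p6. Promoter sequences are RefSeq's, of that assembly. Plots were made in Python 3.11.15 with matplotlib 3.10.9.

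The chaperone set, the gene lists, the tests and the marker lists were chosen with earlier results of these data known. Named were all called probes, or the 3 smallest p where fewer were called, a list of main chaperones whatever their values, and called genes of the partner lists or else the 2 with the smallest p. The model was tested on simulated data with known changes. Of log2 changes of 0.25 it called 20.9% for Ins2Akita against WT, 11.9% for STZ against Control and 17.9% for Control against WT. Of changes of 0.5 it called 74.6%, 68.7% and 79.1%, so most changes of 0.25 were missed in that setting. Each run changed 66 or 67 of 16743 probes at each size, with noise independent between probes. In the data themselves 4.16%, 0.0358% and 22.2% of probes were called in these comparisons, so the rates need not carry over.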

Additional observations from a re-analysis of the deposited data

Results flagged for a closer look

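In 168 groups of values (42 probes in 4 groups), 9 held an array standing apart by Dixon's criterion, and chance gives about 1 in 20. Ins2Akita replicate 9 stood above the other 8 Ins2Akita arrays for Hspa4l at 9.56 (others 8.66 to 9.01) and for Hspa1a at 9.83 (others 9.37 to 9.53). Ins2Akita replicate 4 was low for Cct8 at 10.8 (others 10.94 to 11.08). STZ replicate 1 was low for Dnajc19 at 6.95 (others 7.30 to 7.48) and for Dnajb6 at 9.07 (others 9.35 to 9.46). STZ replicate 5 was low for Hspa1a at 9.44 (others 9.82 to 9.92), and STZ replicate 4 high for Cct3 at 10.7 (others 10.45 to 10.50). Control replicate 5 was low for Dnajb6 at 9.09 (others 9.41 to 9.68), and WT replicate 5 low for the dimmer Tcp1 probe at 7.81 (others 8.24 to 8.60).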

How the results depend on the processing

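The 3 chaperone probes called for Ins2Akita against WT became 1 with median scaling and no quantile step, 21 with the series matrix values (where 23.6% of all probes were called), 0 with only the groups compared, 6 with array weights, 0 with BeadChip as a random block and 5 with the replicate block, which drops replicate 9. The other settings gave 3 or 4, not always of the same probes: with lens and pigment epithelium scores as covariates 1 of the 3 calls was shared and 1 was higher, and with detection on all 31 arrays 2 of the 4 were shared and 1 was higher. Leaving out 1 array gave 2 to 5 calls, and 5 came without Ins2Akita replicate 5 or 9. In the series matrix, whose values were fitted without a quantile step, the bright Hspa8 probe reversed to 0.19 (limma adjusted p = 0.0101), and the cause was not tested. Under alternatives with a value, Dnajb13 kept its call in 6 of 8, Cct3 in 5 of 9 and Hsph1 in 4 of 9. Leaving out 1 array cost Dnajb13 and Cct3 no call.

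STZ against Control and the difference between the models gave 0 calls among the chaperone probes in every setting run and without any 1 array (0 to 0). Control against WT gave 9 to 17 calls across settings and 9 to 15 with 1 array left out. Apart from Ins2Akita replicate 9, replicate numbers follow the positions on the BeadChip. Same-numbered deviations correlated at -0.256 to 0.331 (median -0.0493) for Ins2Akita and WT, and at -0.154 to 0.42 (median -0.0577) for STZ and Control. For Control and WT they correlated at -0.207 to 0.483 (median 0.0409). Medians for different numbers were -0.0139, -0.0689 and -0.0195. Whether the numbers mark related arrays was not tested. The block on these numbers gave 15 calls for Control against WT. Among them were Hsp90aa1 (limma adjusted p = 0.0103), Hspa4l (0.0254) and Cct5 (0.0268), which did not pass without the block. Signal over background limits dim probes: 5 of the 72 were detected on 6 to 9 arrays only.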
